A study of Solanum lycopersicum with 26 samples.

Results

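ABI3, FUS3, ABI5 and AREB1 are 4 transcription factors of abscisic acid (ABA) signalling and seed maturation, and their transcript levels were followed in embryo and endosperm of tomato seeds that finished ripening under different temperature and light. They were picked by identifier from a table of 33976 transcript IDs. ABI3 is Solyc06g083590.4.1, FUS3 is Solyc02g094460.2.1, ABI5 is Solyc09g009490.4.1 and AREB1 is Solyc04g078840.3.1, and each was found as 1 row. By their IDs they lie on chromosome 6 (ABI3), chromosome 2 (FUS3), chromosome 9 (ABI5) and chromosome 4 (AREB1) of the SL4.0 genome build. The tables used here do not pair these IDs with names, so the names are those under which the IDs were picked. The symbols ABI3 and AREB1 also occur in the RefSeq gene table of another build (SLM_r2.1), on chromosomes 6 and 4.

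Fruits of the cultivar Moneymaker were taken off the plant at the breaker stage, when green fruit begins to colour, which fell 63 days after flowering. They spent 7 days in growth chambers, and embryo and endosperm were dissected from their seeds at 70 days. HT_HL is high temperature (32 °C by day and 26 °C by night) in high light (300 µE), ST_DL is standard temperature (23 °C and 20 °C) in dim light (25 µE), HT_DL joins high temperature with dim light, and ST_HL is the standard condition. The photoperiod of 16 h, the cultivar, the detachment of the fruit and the seed age were the same in all groups. The embryo groups held 3 libraries of HT_HL, 3 of ST_DL, 4 of HT_DL and 4 of ST_HL, and the endosperm groups held 3 libraries each. The methods describe a replicate as 10 seeds from 2 fruits, so a library is a pool, and p-values measure only the spread between these pools. They give 3 replicates per group, where the labels list 4 for HT_DL and ST_HL embryo, and what the additional libraries are was not stated. The tissue labels were not checked against marker genes, because few IDs carry a description in the tables used here.

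ABI3 and FUS3 carry the plant-specific B3 DNA-binding domain. In Arabidopsis they belong, with LEC2, to the regulators that switch on the maturation programme of the seed, in which storage protein, oil and protective late embryogenesis abundant proteins accumulate and the embryo becomes dormant and tolerant of drying. ABI5 and AREB1 are basic leucine zipper (bZIP) factors that bind ABA-responsive elements in promoters and are activated by ABA-dependent phosphorylation. In Arabidopsis ABI5 acts downstream of ABI3 in late seed maturation and in the arrest of germination by ABA, whereas tomato AREB1 is best known for ABA and osmotic stress responses of vegetative tissue and fruit. The comparisons below ask how the transcript of each factor differed between stressful ripening conditions and ST_HL, and between embryo and endosperm.

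Total counts lay between 20450644 and 21519318 per library. Levels are given as CPM, that is counts relative to library sizes adjusted by the trimmed mean of M-values (TMM), and they are compared between libraries and not between genes, since CPM does not account for transcript length. In bulk tissue, fewer cells of a type and less RNA per cell cannot be told apart. Across all other genes, the first principal component (PC1) of the embryo libraries held 64.3% of the variance and set replicates 2 and 3 of ST_HL and of HT_DL, with scores of 121 to 126, apart from the other 10 libraries, at -65.6 to -27.4. Each of those groups is therefore split between 2 positions. Beside the main embryo results, the value without these 4 libraries, or without replicates 1 and 4 of the same groups, is given. How many of all genes were called depended on these libraries as well. With replicates 2 and 3 left out, calls were made for 4.19% of genes for HT_HL against ST_HL, 0.286% for ST_DL against ST_HL, 2.5% for HT_DL against HT_HL, 1.22% for HT_DL against ST_DL and 0.011% for the interaction of light and temperature. With replicates 1 and 4 left out, it was 20.7% for HT_HL against ST_HL, 17.7% for ST_DL against ST_HL, 20.5% for HT_DL against HT_HL, 18.5% for HT_DL against ST_DL and 32.5% for the interaction. A call of a regulator without replicates 1 and 4 is read against these larger shares. The 4 libraries also had 18811 to 19034 genes with at least 10 counts, where the embryo libraries as a whole ranged from 17023 to 19034.

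ABI3 had 1142 to 3817 counts per library and ABI5 had 2086 to 6004. FUS3 had 21 to 118 (embryo) and 1 to 10 (endosperm), and AREB1 had 2 to 41 (embryo) and 3 to 14 (endosperm). Counting error alone was 1.62% to 2.96% of the value for ABI3 and 1.29% to 2.19% for ABI5. For FUS3 it was 9.21% to 21.8% (embryo) and 31.6% to 100% (endosperm). For AREB1 it was 15.6% to 70.7% (embryo) and 26.7% to 57.7% (endosperm), so that single libraries of AREB1, and of FUS3 in the endosperm, are imprecise. The estimated counts of ABI3 were not whole numbers in any of the 26 libraries, whereas those of the other factors were whole in all of them, and Salmon gives such values where reads match more than 1 transcript.

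**Figure D1:**
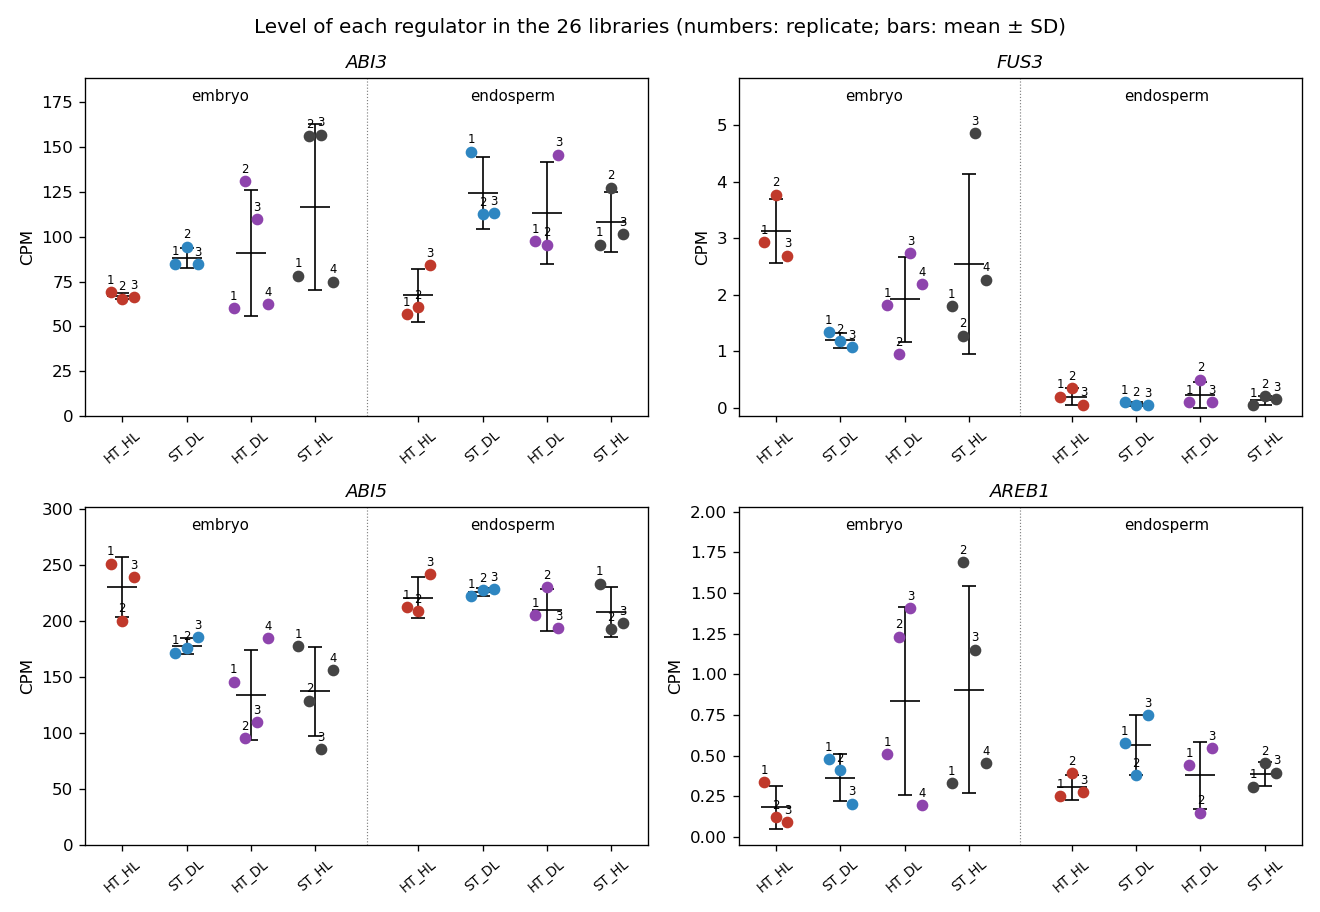
CPM of each regulator in the 26 libraries, by tissue and ripening condition. Each point is a library with its replicate number, and bars give the mean ± SD. FUS3 points of the embryo, 0.944 to 4.85 CPM, all lie above those of the endosperm, 0.0515 to 0.496 CPM, and in ABI3 and AREB1 replicates 2 and 3 of ST_HL and HT_DL embryo lie above the rest of their groups.

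A gene was called when edgeR's quasi-likelihood F-test gave a Benjamini-Hochberg adjusted p below 0.05 over all genes tested and the absolute log2 fold change was above 1. By this rule FUS3 was called higher in embryo than in endosperm in each of the 4 conditions, and no other call was made. For the conditions, 0 of 4 regulators were called in the embryo for HT_HL against ST_HL, where 4.84% of 19253 genes were called. For ST_DL the count was 0 of 4 against 0.587% of all genes, and for HT_DL it was 0 of 4 against 0% of all genes, among which 1004 had an unadjusted p below 0.05. In the endosperm FUS3 was below the filter on low counts, and 0 of the remaining 3 regulators were called for HT_HL (5.85% of 19185 genes), ST_DL (1.14%) or HT_DL (0.599%) against ST_HL. At an unadjusted p below 0.05 there were 3 regulators for HT_HL embryo (ABI3, ABI5 and AREB1), 1 for ST_DL embryo (FUS3), 1 for HT_HL endosperm (ABI3) and 0 for the other 3 comparisons with ST_HL. Such a p is common among all genes. In the embryo 7218 of 19253 genes had it for HT_HL and 4576 for ST_DL. In the endosperm 7281 of 19185 genes had it for HT_HL, 3621 for ST_DL and 2103 for HT_DL. DESeq2 called 1 regulator for HT_HL embryo, AREB1, and 0 in the other 5, and limma voom called 0 in all 6. The shares of all genes called by these tools are not given here. Their counts, here and below, are therefore not read as results about the regulators.

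Counts of regulators whose groups did not overlap are read against the same share of all genes. For HT_HL against ST_HL in the embryo 2 of 4 regulators did not overlap, ABI3 on the low side and ABI5 on the high side, where 28% of all genes did not overlap. In the endosperm it was 1 of 3, ABI3 on the low side, where 40% of all genes did not overlap. None of the regulators had separate groups for ST_DL or HT_DL against ST_HL in either tissue, where the share of all genes was 22.6% (ST_DL) and 2.82% (HT_DL) in the embryo and 29.7% (ST_DL) and 16.2% (HT_DL) in the endosperm.

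**Figure D2:**
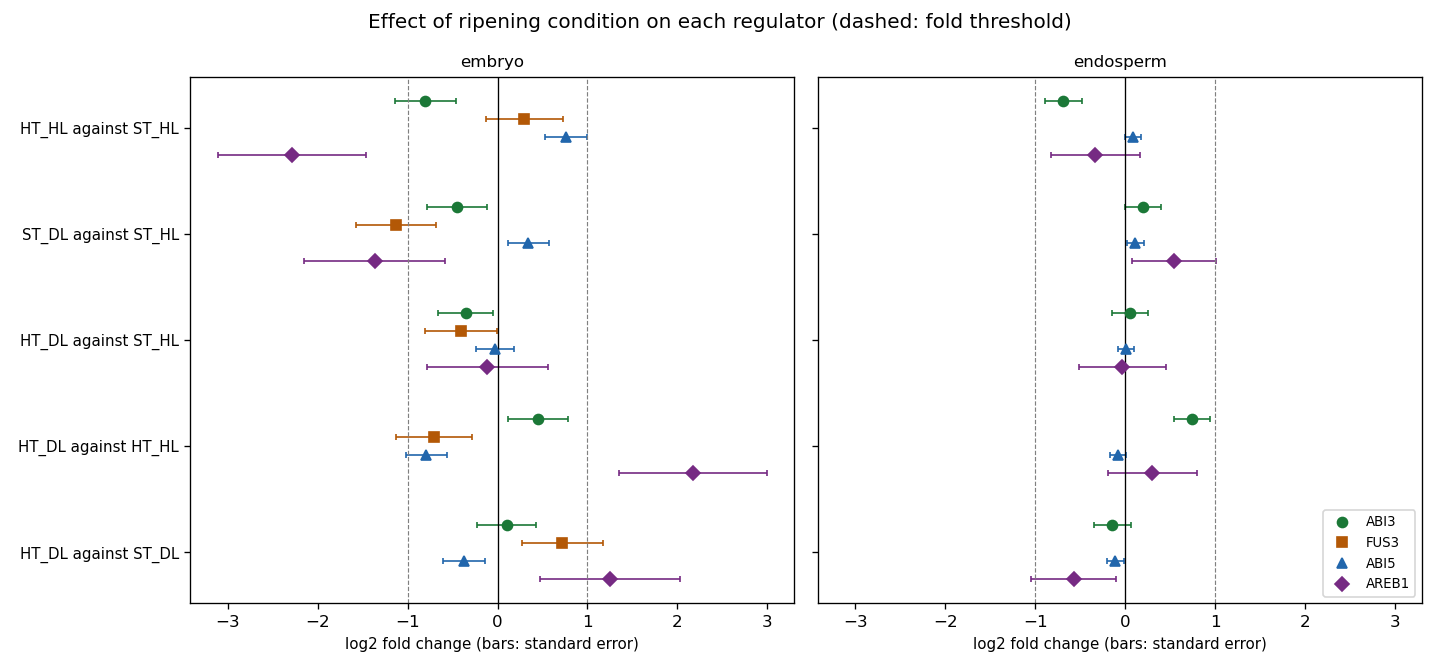
Log2 fold change of each regulator in 5 comparisons of conditions, embryo on the left and endosperm on the right. Points are estimates of edgeR's quasi-likelihood fit, bars their standard errors and dashed lines the fold threshold of 1. The estimates of ABI5 in the endosperm stay between -0.11 and 0.11, and AREB1 in the embryo has the widest bars, with SE from 0.68 to 0.82.

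ABI3, which in Arabidopsis seeds activates maturation genes through RY repeats, had its lowest group mean in HT_HL in both tissues. In the embryo it had 69.0, 65.5 and 66.5 CPM in HT_HL, 85.0, 94.6 and 84.8 CPM in ST_DL, 60.3, 131, 109.9 and 62.5 CPM in HT_DL, and 78.3, 156, 157 and 75.0 CPM in ST_HL. The HT_HL libraries lay close together and under every ST_HL library, whereas HT_DL and ST_HL were each split, with replicates 2 and 3 high and replicates 1 and 4 low. Replicates 1 and 4 of HT_DL were below every HT_HL library. The means were 67.0 ± 1.78 CPM in HT_HL and 117 ± 46.1 CPM in ST_HL (SD, n = 3 and n = 4), a log2 fold change of -0.80 (SE 0.34, adjusted p = 0.107), which was not past the threshold. For ST_DL embryo the mean was 88.1 ± 5.58 CPM (log2 fold change -0.45, SE 0.33, adjusted p = 0.410) and for HT_DL embryo 90.9 ± 35.2 CPM (log2 fold change -0.35, SE 0.31, adjusted p = 1.00), and both groups overlapped ST_HL. Without replicates 2 and 3 of ST_HL and HT_DL, the log2 fold change of HT_HL against ST_HL was -0.15 (SE 0.10, adjusted p = 0.314). Without replicates 1 and 4 of these groups it was -1.22 (SE 0.10, adjusted p = 2.01e-05). The size of the ABI3 difference in the embryo thus depended on which ST_HL libraries entered, and for ST_DL its sign did too, at 0.20 without replicates 2 and 3 and -0.87 without replicates 1 and 4.

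In the endosperm ABI3 had 57.0, 60.9 and 84.1 CPM in HT_HL, 148, 113 and 113 CPM in ST_DL, 97.6, 95.6 and 146 CPM in HT_DL, and 95.6, 127 and 102 CPM in ST_HL. All 3 HT_HL libraries were below all 9 libraries of the other conditions, which overlapped each other. The mean was 67.4 ± 14.7 CPM in HT_HL and 108 ± 16.9 CPM in ST_HL (SD, n = 3 each), with a log2 fold change of -0.69 (SE 0.20, adjusted p = 0.0310). Its adjusted p was below 0.05, as that of 23.8% of all genes was at any fold, but its fold was under the threshold. Against HT_HL, HT_DL endosperm was higher by 0.74 on the log2 scale (SE 0.20, adjusted p = 0.0216), with groups that did not overlap, and this fold was again under the threshold. At any fold 24.7% of all genes had an adjusted p below 0.05 in this comparison. ABI3 was the 1 regulator of the 3 tested whose groups were separate here, where 35.9% of all genes were. The adjusted p of HT_HL against ST_HL was above 0.05 without replicate 2 (0.104) or replicate 3 (0.0659) of ST_HL endosperm and without replicate 1 (0.127) or replicate 2 (0.0934) of HT_HL endosperm. For HT_DL against HT_HL it was above 0.05 without replicate 3 of HT_DL endosperm (0.0739) and without replicate 1 (0.0968) or replicate 2 (0.0641) of HT_HL endosperm. In ST_DL endosperm (125 ± 20.0 CPM) and HT_DL endosperm (113 ± 28.5 CPM) the log2 fold changes against ST_HL were 0.20 (SE 0.20, adjusted p = 0.646) and 0.05 (SE 0.20, adjusted p = 0.963).

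FUS3, which in Arabidopsis embryos promotes storage protein accumulation and embryo identity, had low counts, which in the embryo varied most in ST_HL. In the embryo it had 2.93, 3.77 and 2.69 CPM in HT_HL, 1.33, 1.18 and 1.07 CPM in ST_DL, 1.81, 0.944, 2.73 and 2.19 CPM in HT_DL, and 1.80, 1.28, 4.85 and 2.26 CPM in ST_HL. HT_HL and ST_DL embryo both overlapped ST_HL, whose replicate 3 was the highest of all libraries. The mean of ST_DL embryo was 1.20 ± 0.132 CPM (n = 3) against 2.55 ± 1.59 CPM in ST_HL embryo (n = 4), a log2 fold change of -1.13 (SE 0.45, adjusted p = 0.169). HT_HL embryo averaged 3.13 ± 0.564 CPM (log2 fold change against ST_HL 0.30, SE 0.43, adjusted p = 0.627) and HT_DL embryo 1.92 ± 0.751 CPM (log2 fold change -0.41, SE 0.40, adjusted p = 1.00). Leaving out replicates 2 and 3 of ST_HL and HT_DL put the value of ST_DL at -0.76 (adjusted p = 0.238) and that of HT_HL at 0.66 (adjusted p = 0.113). Leaving out replicates 1 and 4 put that of ST_DL at -1.39 (adjusted p = 0.0711) and that of HT_HL at 0.04 (adjusted p = 0.958). Unlike the other regulators, FUS3 did not separate the 4 libraries high on PC1, since replicate 2 was low (0.944 CPM in HT_DL and 1.28 CPM in ST_HL) and replicate 3 high (2.73 CPM in HT_DL and 4.85 CPM in ST_HL). In the endosperm its counts were 4, 7 and 1 in HT_HL, 2, 1 and 1 in ST_DL, 2, 10 and 2 in HT_DL, and 1, 4 and 3 in ST_HL. Only 4 of the 12 endosperm libraries were above 3 counts, and with FUS3 below the filter no difference between conditions was tested there.

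ABI5, the bZIP factor that in Arabidopsis binds the promoters of late embryogenesis abundant genes, was high in HT_HL embryo and nearly level in the endosperm. In the embryo it had 251, 200.5 and 239 CPM in HT_HL, 172, 176 and 186 CPM in ST_DL, 146, 95.6, 110.0 and 185 CPM in HT_DL, and 178, 129, 85.8 and 157 CPM in ST_HL. Every HT_HL embryo library was above all 11 other embryo libraries, and replicates 2 and 3 of HT_DL and of ST_HL were the lowest 4. The mean was 230 ± 26.6 CPM in HT_HL and 137 ± 39.8 CPM in ST_HL (SD, n = 3 and n = 4), with a log2 fold change of 0.76 (SE 0.23, adjusted p = 0.0394) that was under the fold threshold. At any fold 17.8% of all genes had an adjusted p below 0.05. Without replicates 2 and 3 of ST_HL and HT_DL the difference was 0.50 (SE 0.14, adjusted p = 0.0403), and without replicates 1 and 4 it was 1.10 (SE 0.17, adjusted p = 0.000774), which passes the threshold. Its adjusted p was above 0.05, at 0.0518 to 0.162, on leaving out any 1 of 8 libraries, namely all replicates of ST_DL, replicates 2, 3 and 4 of ST_HL, and replicates 1 and 3 of HT_HL. ST_DL embryo averaged 178 ± 7.03 CPM (log2 fold change against ST_HL 0.34, SE 0.23, adjusted p = 0.367, and 0.68 with adjusted p = 0.0109 without replicates 1 and 4) and HT_DL embryo 134 ± 40.0 CPM (log2 fold change -0.03, SE 0.21, adjusted p = 1.00).

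Among the embryos ripened at high temperature, ABI5 was lower in dim than in high light. HT_DL against HT_HL gave a log2 fold change of -0.79 (SE 0.23, adjusted p = 0.0379), again under the fold threshold, and 14.6% of all genes had an adjusted p below 0.05 at any fold. The ABI5 adjusted p was above 0.05, at 0.0521 to 0.162, on leaving out any 1 of 7 libraries, namely all replicates of ST_DL, replicates 2 and 3 of HT_DL, and replicates 1 and 3 of HT_HL. ABI5 was the 1 regulator of 4 whose groups did not overlap in this comparison, where 22.8% of all genes did not overlap, and 0 of 4 regulators were called, where 3.85% of genes were. At an unadjusted p below 0.05 there were 2, ABI5 and AREB1, where 6742 of 19253 genes had such a p, and DESeq2 called AREB1. Without replicates 2 and 3 of ST_HL and HT_DL the ABI5 value was -0.51 (SE 0.14, adjusted p = 0.0493), and without replicates 1 and 4 it was -1.16 (SE 0.17, adjusted p = 0.000543). In the endosperm ABI5 had 213, 209 and 242 CPM in HT_HL, 222, 228 and 229 CPM in ST_DL, 206, 231 and 194 CPM in HT_DL, and 234, 193 and 198 CPM in ST_HL. The highest of these 12 libraries was 1.25 times the lowest, where in the embryo this ratio was 2.93. The log2 fold changes against ST_HL in the endosperm were 0.08 for HT_HL (SE 0.09, adjusted p = 0.524), 0.11 for ST_DL (SE 0.09, adjusted p = 0.538) and 0.01 for HT_DL (SE 0.09, adjusted p = 0.993).

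AREB1, the ABA-responsive bZIP factor, was near the floor of detection in most libraries and highest in 4 embryo libraries. In the embryo its counts were 8, 3 and 2 in HT_HL, 9, 8 and 4 in ST_DL, 11, 30, 34 and 4 in HT_DL, and 7, 41, 28 and 10 in ST_HL. Replicates 2 and 3 of HT_DL and ST_HL had 28 to 41 counts each, of 199 in the embryo in all, and every other embryo library had 11 or fewer. The mean level was 0.182 ± 0.133 CPM in HT_HL and 0.906 ± 0.635 CPM in ST_HL (SD, n = 3 and n = 4), with a log2 fold change of -2.29 (SE 0.82, adjusted p = 0.0699). It was called without replicate 1 of ST_HL (-2.57, adjusted p = 0.0470) or replicate 4 of HT_DL (-2.28, adjusted p = 0.0498), and over 22 alternatives the adjusted p ran from 0.00203 to 0.307. Without replicates 1 and 4 of both groups it was -2.91 (SE 0.54, adjusted p = 0.00203). Without replicates 2 and 3 of both groups AREB1 no longer passed the filter on low counts, so it had entered the embryo fit through those libraries, and no estimate was made. Since AREB1 was tested because it was high there, its embryo calls under any alternative are descriptions of those libraries and no support for a difference between conditions. With no filter on low counts its adjusted p for HT_HL against ST_HL was 0.0883.

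The other AREB1 differences in the embryo were ST_DL against ST_HL, at -1.37 (SE 0.78, adjusted p = 0.293), and HT_DL against ST_HL, at -0.11 (SE 0.68, adjusted p = 1.00). HT_DL against HT_HL was at 2.17 (SE 0.82, adjusted p = 0.0869), and without replicate 4 of HT_DL it was called at 2.50 (adjusted p = 0.0498). Leaving out replicates 1 and 4 of ST_HL and HT_DL, ST_DL against ST_HL was called at -1.99 (adjusted p = 0.0126) and HT_DL against HT_HL at 2.81 (adjusted p = 0.00251). All of these groups overlapped. In the endosperm the counts were 5, 8 and 5 in HT_HL, 11, 7 and 14 in ST_DL, 9, 3 and 11 in HT_DL, and 6, 9 and 8 in ST_HL. These libraries showed no split like that of the embryo, and the log2 fold changes against ST_HL were -0.34 for HT_HL (SE 0.49, adjusted p = 0.653), 0.54 for ST_DL (SE 0.47, adjusted p = 0.580) and -0.03 for HT_DL (SE 0.48, adjusted p = 0.993).

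**Figure D3:**
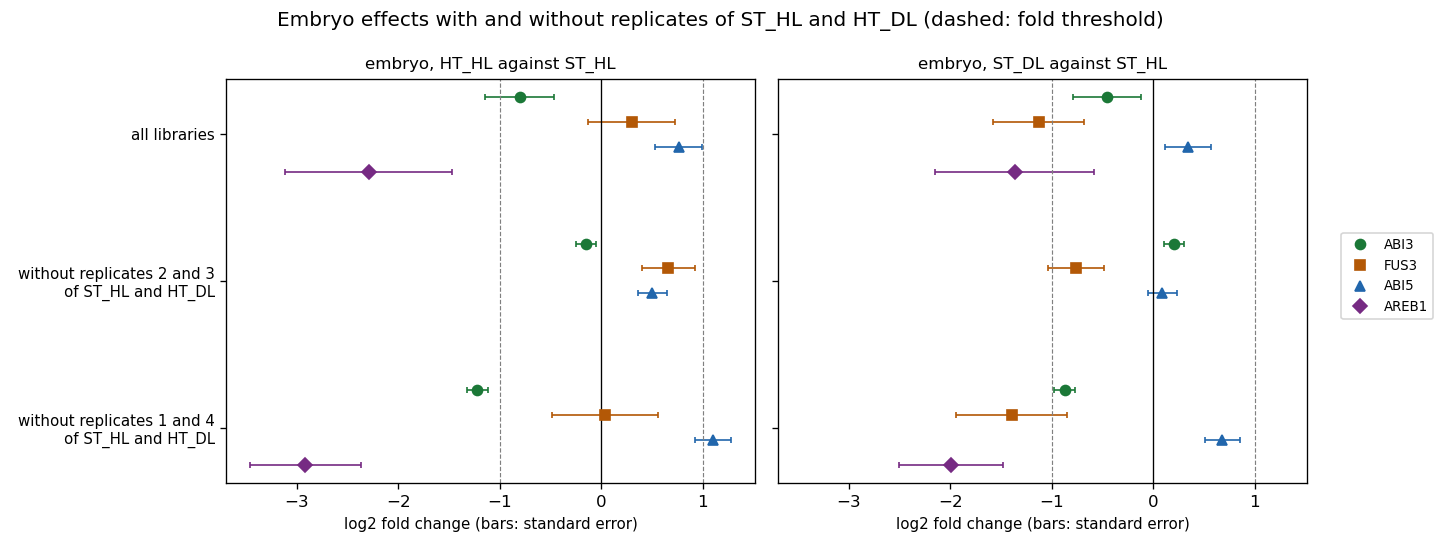
Log2 fold change in the embryo with all libraries, without replicates 2 and 3 of ST_HL and HT_DL, and without replicates 1 and 4 of these groups. Points are estimates of edgeR's quasi-likelihood fit, bars standard errors and dashed lines the fold threshold of 1. ABI3 in HT_HL against ST_HL moves between -0.15 and -1.22, ABI5 between 0.50 and 1.10, and AREB1 has no estimate without replicates 2 and 3.

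The effect of high temperature in dim light, HT_DL against ST_DL, was called for 0 of 4 regulators in the embryo, where 1.23% of genes were called, and for 0 of 3 in the endosperm, where 4.01% were. None had an unadjusted p below 0.05 or separate groups in this comparison, where groups were separate for 22.2% (embryo) and 34% (endosperm) of all genes, and DESeq2 and limma voom called none. In the embryo the log2 fold changes were 0.10 for ABI3 (SE 0.33), 0.72 for FUS3 (SE 0.45), -0.37 for ABI5 (SE 0.23) and 1.25 for AREB1 (SE 0.78), with adjusted p from 0.309 to 0.867. The sign of the ABI3 value was not stable, since it was -0.51 (SE 0.10, adjusted p = 0.0239) without replicates 2 and 3 of HT_DL and ST_HL, and 0.50 (SE 0.10, adjusted p = 0.00421) without replicates 1 and 4. Without replicates 1 and 4, ABI5 was at -0.74 (adjusted p = 0.00720) and AREB1 was called at 1.89 (adjusted p = 0.0165). In the endosperm they were -0.14 for ABI3 (SE 0.20), -0.11 for ABI5 (SE 0.09) and -0.57 for AREB1 (SE 0.47), with adjusted p from 0.462 to 0.689. HT_DL against HT_HL was called for 0 of 3 regulators in the endosperm, where 5.93% of genes were called. There 1 regulator, ABI3, had an unadjusted p below 0.05, as did 7444 of 19185 genes, and DESeq2 and limma voom called none.

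Whether the effect of temperature differed between dim and high light was tested as an interaction. In the embryo 0 of 4 regulators were called, where 1.76% of genes were. ABI5 and AREB1 had an unadjusted p below 0.05, as did 6523 of 19253 genes. The interaction was -1.13 for ABI5 (SE 0.33, adjusted p = 0.0537), 3.54 for AREB1 (SE 1.13, adjusted p = 0.0631), 0.90 for ABI3 (SE 0.47, adjusted p = 0.197) and 0.42 for FUS3 (SE 0.61, adjusted p = 0.653). DESeq2 called ABI5 and AREB1, and limma voom called ABI5. With the replicate number as a block 3 regulators were called, ABI3 at 1.07 (adjusted p = 0.0436), ABI5 at -1.42 (adjusted p = 0.0102) and AREB1 at 3.91 (adjusted p = 0.0267). Libraries of HT_DL and ST_HL embryo with the same number correlated, but some with different numbers did so as strongly. The numbers are thus not shown to pair these groups, nor to pair them with HT_HL or ST_DL embryo. ABI5 was also called on leaving out replicate 1 of ST_HL (-1.27, adjusted p = 0.0355), replicate 4 of ST_HL (-1.21, adjusted p = 0.0479), replicate 1 of HT_DL (-1.17, adjusted p = 0.0416) or replicate 4 of HT_DL (-1.33, adjusted p = 0.0340). AREB1 was called on leaving out replicate 1 of ST_HL (3.82, adjusted p = 0.0419), replicate 1 of HT_DL (3.72, adjusted p = 0.0467) or replicate 4 of HT_DL (3.85, adjusted p = 0.0367). Without both replicates 1 and 4 of these groups the interaction was -1.85 for ABI5, 4.80 for AREB1 and 1.72 for ABI3, all called, where 32.5% of all genes were, and without replicates 2 and 3 it was -0.60 for ABI5 (adjusted p = 0.215) and -0.36 for ABI3 (adjusted p = 0.270). AREB1 had no estimate without replicates 2 and 3, through which it passed the filter, so its calls here only describe those libraries. In the endosperm 0 of 3 were called, where 2.06% of genes were, and DESeq2 and limma voom called none. None of the 3 had an unadjusted p below 0.05, where 4754 of 19185 genes had one. The interaction there was 0.55 for ABI3 (SE 0.29, adjusted p = 0.262), -0.19 for ABI5 (SE 0.13, adjusted p = 0.370) and -0.24 for AREB1 (SE 0.69, adjusted p = 0.862).

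The libraries high on PC1 of all other genes held most of the spread of 3 of the regulators within ST_HL and HT_DL embryo. This PC1 was computed without the 4 regulators, and the values are a description without a test. ABI3 was at 109.9 to 157 CPM in these 4 libraries and at 60.3 to 94.6 CPM in the other 10 embryo libraries. AREB1 was at 1.15 to 1.69 CPM in the 4 libraries and at 0.0912 to 0.511 CPM in the other 10, while ABI5 was at 85.8 to 129 CPM in the 4 libraries and at 146 to 251 CPM in the other 10. AREB1 passed the embryo filter on low counts through these same 4 libraries, so its high level in them is not a separate result. With AREB1 counted, 3 of 4 regulators had no overlap, ABI3 and AREB1 on the high side and ABI5 on the low side. Of 19249 other genes 25% had none, 17.4% on the high side and 7.68% on the low side. FUS3 overlapped, at 0.944 to 4.85 CPM in the 4 libraries and 1.07 to 3.77 CPM in the other 10.

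In the endosperm PC1 held 39.9% of the variance and its order of libraries resembled that of ABI3. The 3 lowest PC1 scores belonged to HT_DL replicate 3 (-65.5), ST_DL replicate 1 (-61.2) and ST_HL replicate 2 (-57.7), which had the 3 highest ABI3 levels, 146, 148 and 127 CPM. The 3 HT_HL libraries had the highest scores, 54.5 to 68.0, and the lowest ABI3 levels. Replicates of a condition were thus spread along PC1 in the endosperm too, and the part of this spread in the ABI3 differences was not tested. PC1 is made of the other genes, so such an order is not particular to ABI3. How many genes follow it as ABI3 does is not given here.

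**Figure D4:**
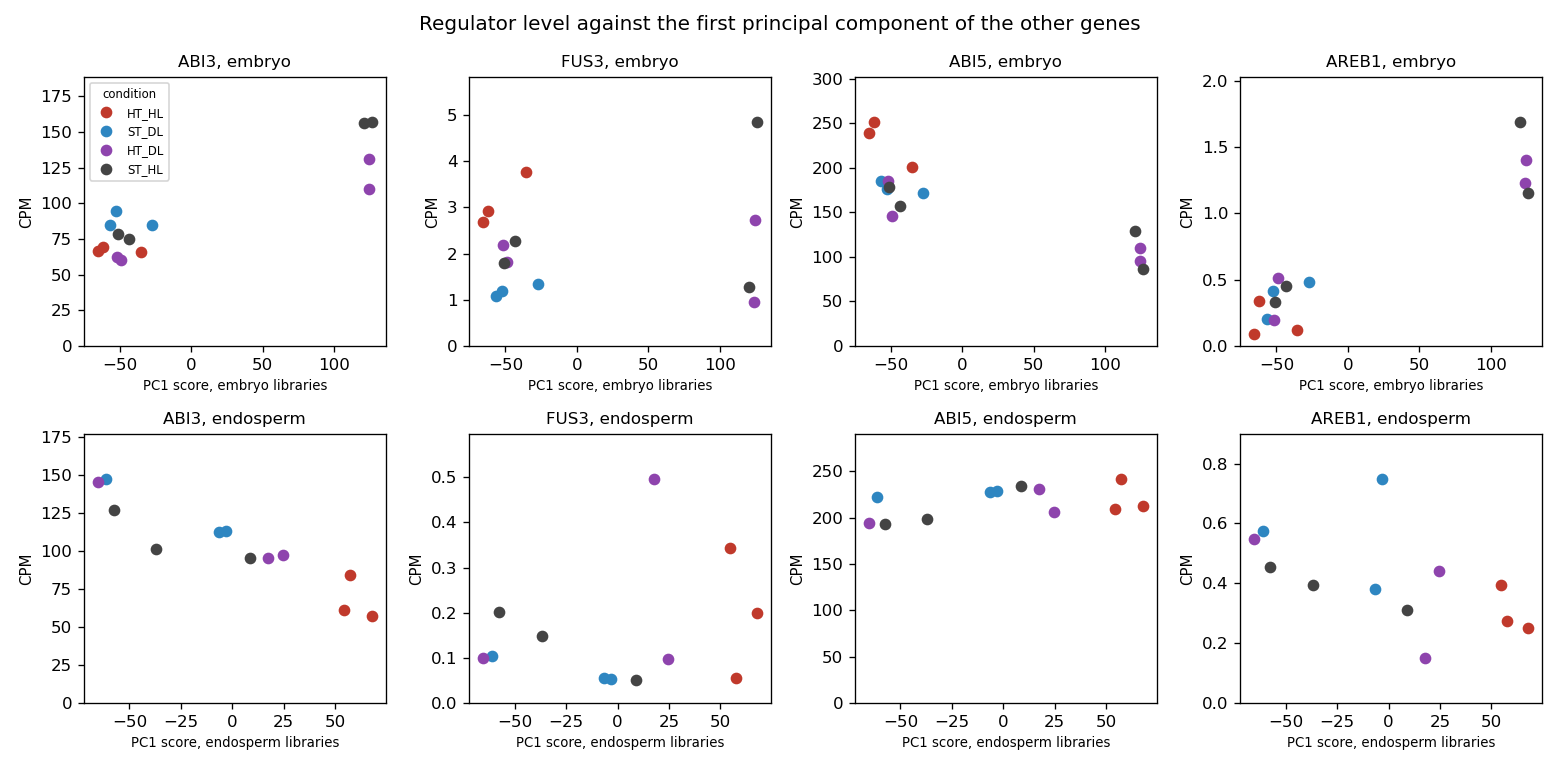
CPM of each regulator against the PC1 score of the other genes, for embryo libraries (upper panels) and endosperm libraries (lower panels), coloured by condition. Each point is a library. In the embryo the 4 libraries at scores of 121 to 126 are high in ABI3 and AREB1 and low in ABI5, while in the endosperm ABI5 stays between 193 and 242 CPM along the whole axis.

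FUS3 was the regulator that set the tissues apart. It was below the filter among endosperm libraries and entered the fit of all 26 libraries through the embryo, where it was high. The FUS3 calls are therefore read as a description of these libraries. Its embryo counts summed to 702 over 14 libraries and its endosperm counts to 38 over 12, and in each condition the lowest embryo library was above the highest endosperm library. It was called higher in embryo in HT_HL at a log2 fold change of 3.90 (SE 0.63, adjusted p = 2.56e-05), in ST_DL at 3.95 (SE 0.72, adjusted p = 0.000107), in HT_DL at 2.997 (SE 0.60, adjusted p = 0.000227) and in ST_HL at 4.17 (SE 0.65, adjusted p = 1.34e-05). As a mean over the conditions it was 3.75 (SE 0.33, adjusted p = 8.44e-10). The share of all 21153 genes called higher in embryo was 12.5% in HT_HL, 12.7% in ST_DL, 15% in HT_DL, 15.1% in ST_HL and 14.9% for the mean, so that a call in this direction is common. Because some endosperm libraries held 1 to 3 counts, ratios of the summed counts with an exact 95% interval for counting error are given too. Embryo over endosperm, the ratio was 15.4 (8.65 to 30.3) in HT_HL, 16.8 (6.27 to 63.4) in ST_DL, 8.27 (4.80 to 15.4) in HT_DL and 19.2 (9.59 to 45.0) in ST_HL. The intervals of all 4 conditions overlapped. The HT_DL value rested in part on endosperm replicate 2, with 10 of the 14 FUS3 counts of that group, and without this library the log2 fold change was 4.20 (adjusted p = 5.12e-05). In HT_HL the log2 fold change without endosperm replicate 2 was 4.53 (adjusted p = 7.33e-05). FUS3 was called in all 4 conditions under every alternative run, also without either pair of embryo replicates and with no filter on low counts.

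ABI5 was lower in embryo than in endosperm by less than the fold threshold. The embryo mean was 165 ± 49.0 CPM and the endosperm mean 216 ± 16.6 CPM (SD, n = 14 and n = 12), and as a mean over conditions the log2 fold change was -0.40 (SE 0.10, adjusted p = 0.00112), where 74% of all genes had an adjusted p below 0.05. By condition it was 0.05 in HT_HL (SE 0.21, adjusted p = 0.879), -0.37 in ST_DL (SE 0.21, adjusted p = 0.153), -0.67 in HT_DL (SE 0.19, adjusted p = 0.00583) and -0.62 in ST_HL (SE 0.19, adjusted p = 0.00971). At any fold, 55.9% of all genes in HT_DL and 55.1% in ST_HL had an adjusted p below 0.05, as did 52.4% in HT_HL and 50.6% in ST_DL. Without replicate 1 of ST_HL endosperm the ST_HL value was -0.53 (adjusted p = 0.0522). Embryo and endosperm libraries overlapped in HT_HL and were separate in the other conditions. Without replicates 2 and 3 of HT_DL and ST_HL embryo the values were -0.37 in HT_DL (adjusted p = 0.0114) and -0.36 in ST_HL (adjusted p = 0.0147), and without replicates 1 and 4 they were -1.05 in HT_DL (adjusted p = 8.90e-06) and -0.98 in ST_HL (adjusted p = 1.89e-05).

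ABI3 and AREB1 were not called between the tissues in any condition. ABI3 averaged 92.5 ± 33.4 CPM in embryo and 103 ± 28.6 CPM in endosperm, and its log2 fold changes were -0.02 in HT_HL (SE 0.30), -0.52 in ST_DL (SE 0.30), -0.33 in HT_DL (SE 0.27) and 0.09 in ST_HL (SE 0.28), with adjusted p from 0.154 to 0.966. In ST_DL its embryo libraries were all below the endosperm libraries. Without replicates 2 and 3 of ST_HL and HT_DL embryo the values were -0.91 in HT_DL (adjusted p = 0.000679) and -0.54 in ST_HL (adjusted p = 0.0238), and without replicates 1 and 4 they were 0.07 in HT_DL (adjusted p = 0.754) and 0.51 in ST_HL (adjusted p = 0.0232). The direction of ABI3 between the tissues therefore depended on which embryo replicates entered. AREB1 averaged 0.615 ± 0.524 CPM in embryo and 0.409 ± 0.162 CPM in endosperm, and its log2 fold changes were -0.74 in HT_HL (SE 0.74), -0.65 in ST_DL (SE 0.69), 1.12 in HT_DL (SE 0.64) and 1.20 in ST_HL (SE 0.64), with adjusted p from 0.116 to 0.456. AREB1 was called in HT_DL without embryo replicate 4 (1.44, adjusted p = 0.0491). Without embryo replicates 1 and 4 it was called in HT_DL (1.77, adjusted p = 0.00457), where 34.7% of all genes were, and in ST_HL (1.84, adjusted p = 0.00331), where 34.8% were. Without replicates 2 and 3 it was -0.13 in HT_DL and -0.02 in ST_HL. Replicates 2 and 3 are the embryo libraries in which AREB1 was high. These AREB1 calls therefore describe those libraries and are no support for a difference between the tissues.

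**Figure D5:**
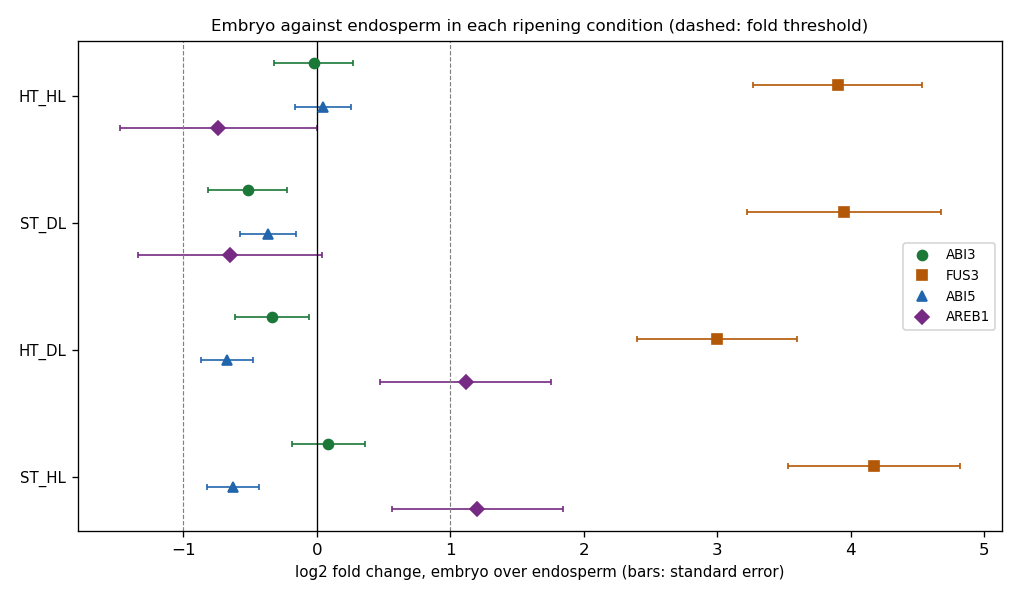
Log2 fold change of embryo over endosperm for each regulator in the 4 ripening conditions. Points are estimates of edgeR's quasi-likelihood fit of all 26 libraries, bars standard errors and dashed lines the fold threshold of 1. FUS3 lies between 2.997 and 4.17 in every condition, ABI5 between -0.67 and 0.05, and AREB1 is above 1 only in HT_DL and ST_HL, without being called.

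In all, 1 of 4 regulators was called in each comparison of the tissues, where 31.2% of genes were called in either direction in HT_HL, 29.6% in ST_DL, 32.2% in HT_DL, 31.1% in ST_HL and 33.5% for the mean. Groups were separate for 1 of 4 regulators in HT_HL (60.9% of all genes), 3 of 4 in ST_DL (67.5%), 2 of 4 in HT_DL (51.7%) and 2 of 4 in ST_HL (54.8%). Whether the effect of a condition differed between embryo and endosperm was tested by an interaction of tissue and condition. For HT_HL it was called for 0 of 4 regulators (0.789% of genes), for ST_DL for 0 of 4 (0.0331%) and for HT_DL for 0 of 4 (0.00945%), and DESeq2 and limma voom called none. At an unadjusted p below 0.05 there was 1, ABI5 in HT_HL, at 0.67 (SE 0.29, adjusted p = 0.232), where 3564 of 21153 genes had such a p. AREB1 in HT_HL was at -1.94 (SE 0.98, adjusted p = 0.321), so the HT_HL differences seen in the embryo alone were not shown to differ from those of the endosperm. Without replicates 1 and 4 of ST_HL and HT_DL embryo, ABI5 (1.02, adjusted p = 0.00153) and AREB1 (-2.58, adjusted p = 0.0204) were called for HT_HL, where 9.42% of all genes were. The ST_HL embryo libraries kept there are those in which AREB1 was high, so its call only describes them.

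Ordered by mean level, the 8 groups of a regulator seldom separated from their neighbours. For ABI3 the order ran from ST_DL endosperm (125 CPM) through ST_HL embryo, HT_DL endosperm, ST_HL endosperm, HT_DL embryo and ST_DL embryo to HT_HL endosperm (67.4 CPM) and HT_HL embryo (67.0 CPM), and the only neighbours whose libraries did not overlap were ST_DL embryo and HT_HL endosperm. For FUS3 the embryo groups came first, HT_HL (3.13 CPM), ST_HL, HT_DL and ST_DL (1.20 CPM), and the sole gap was that between ST_DL embryo and HT_DL endosperm (0.231 CPM), followed by HT_HL, ST_HL and ST_DL endosperm (0.0707 CPM). For ABI5, HT_HL embryo (230 CPM) and the endosperm groups in the order ST_DL, HT_HL, HT_DL and ST_HL (208 CPM) were separate from ST_DL embryo (178 CPM), ST_HL embryo and HT_DL embryo (134 CPM). AREB1, highest in ST_HL embryo (0.906 CPM) and lowest in HT_HL embryo (0.182 CPM), had no neighbours that did not overlap.

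For each regulator the 3 genes of most similar profile were sought by the root mean square difference of log2 CPM over the 8 group means, each gene centred on its own mean, among 17337 genes (17338 for AREB1, itself below the minimum mean of 1 CPM). Nearest to ABI3 were Solyc06g076650.4.1, described as an enolase of glycolysis (0.10), Solyc04g014460.4.1 (0.11) and Solyc06g073510.3.1 (0.11), where the median over all candidates was 0.52. The enolase gene was at 5.44 ± 1.63 CPM in HT_HL embryo and 8.29 ± 1.81 CPM in ST_HL embryo, and at 5.71 ± 1.54 CPM in HT_HL endosperm and 8.63 ± 0.607 CPM in ST_HL endosperm. Nearest to FUS3 were Solyc07g062880.3.1 (0.22), Solyc08g048455.1.1 (0.24) and Solyc01g010920.2.1 (0.28), where the median was 1.64. The first of them was at 40.3 ± 3.66 CPM in HT_HL embryo and 29.8 ± 2.62 CPM in ST_HL embryo, and at 3.61 ± 0.147 CPM in HT_HL endosperm and 3.76 ± 1.43 CPM in ST_HL endosperm. Nearest to ABI5 were Solyc02g062800.2.1 (0.08), Solyc03g096610.2.1 (0.09) and Solyc10g078420.2.1 (0.09), where the median was 0.52. Nearest to AREB1 were Solyc09g061840.4.1, described as a 3-ketoacyl-CoA thiolase of fatty acid breakdown (0.21), Solyc08g023500.4.1 (0.21) and Solyc04g009510.4.1 (0.21), where the median was 0.67. The thiolase gene was at 4.35 ± 1.31 CPM in HT_HL embryo, 20.9 ± 19.2 CPM in HT_DL embryo and 16.0 ± 11.6 CPM in ST_HL embryo, with SDs nearly as large as the means in HT_DL and ST_HL. Among the regulators themselves the closest were ABI3 and AREB1 (0.41), and 488 of 17338 genes were closer to AREB1 than ABI3 was, while 5103 of 17337 were closer to ABI3 than AREB1 was. These distances are over 8 means that share libraries, and no test was made of them.

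Genes of processes that these regulators are known to act in were counted from the annotation used here, of which the list by Gene Ontology holds only part of the genome. Of the 64 IDs annotated with responses to or signalling by ABA, 39 passed the filter among embryo libraries and 43 among endosperm libraries. In HT_HL embryo 2 rose and 1 fell against ST_HL, where 4.84% of all genes were called, with a median log2 fold change of 0.23 over the list and -0.07 over all genes tested, and the largest rise was in Solyc01g065980.4.1, at 196 ± 8.87 CPM in HT_HL embryo and 86.8 ± 19.7 CPM in ST_HL embryo (log2 fold change 1.19, SE 0.20, adjusted p = 0.00325). The gene that fell, Solyc01g008970.4.1, was at 358 ± 32.5 CPM in HT_HL embryo and 738 ± 83.7 CPM in ST_HL embryo (log2 fold change -1.03, SE 0.11, adjusted p = 0.000451). Neither of these calls held under both sets of libraries. Without replicates 2 and 3 of ST_HL and HT_DL, Solyc01g065980.4.1 was at 0.97, under the fold threshold, and Solyc01g008970.4.1 was called at -1.12. Without replicates 1 and 4 the first was called at 1.48, and the second was at -0.91, under the threshold. The other gene that rose, Solyc01g066560.3.1 (log2 fold change 1.04, SE 0.19, adjusted p = 0.00427), was called under both sets. It was at 1.04 (adjusted p = 0.0168) without replicates 2 and 3 and at 1.07 (adjusted p = 0.00719) without replicates 1 and 4. In ST_DL embryo 0 rose and 1 fell (0.587% of all genes called), and in HT_DL embryo 0 were called (0%). These counts moved with the embryo libraries that lay apart, as did the shares of all genes called. For HT_HL 1 rose and 1 fell of 38 without replicates 2 and 3 of ST_HL and HT_DL (4.19% of all genes called), and 7 rose and 3 fell of 40 without replicates 1 and 4 (20.7%). For ST_DL 0 were called without the first pair (0.286%), and 2 rose and 4 fell without the second (17.7%). In the endosperm 3 rose and 0 fell in HT_HL (5.85% of all genes called), 0 were called in ST_DL (1.14%), and 1 rose and 0 fell in HT_DL (0.599%). That gene, Solyc01g009160.2.1, rose in HT_HL endosperm as well, to 10.4 ± 3.47 CPM, against 2.09 ± 0.420 CPM in ST_HL endosperm (log2 fold change 2.32, SE 0.29, adjusted p = 0.000603). Between embryo and endosperm 6 of 44 were higher and 12 lower in embryo, where 33.5% of all genes were called, with a median of -0.27 over the list and 0.03 over all genes.

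Of 30 IDs annotated with seed germination, dormancy, maturation or development, 10 passed the filter among embryo libraries and 11 among endosperm libraries, and none was called in any comparison with ST_HL. Between the tissues 3 of 11 were higher and 2 lower in embryo (33.5% of all genes called), among them Solyc01g066570.3.1, which the ABA list also holds, at 35.4 ± 8.06 CPM in embryo and 9.34 ± 2.62 CPM in endosperm (SD, n = 14 and n = 12). The list of lipid body proteins, which coat the oil stores of the seed, was complete and held 27 IDs, among them seipins, oleosins, caleosins, steroleosins and lipid droplet-associated factors. In HT_HL embryo 0 of 24 rose and 2 fell, where 4.84% of all genes were called, both lipid droplet-associated factors, Solyc09g074930.3.1 at -1.29 (SE 0.22, adjusted p = 0.00316) and Solyc01g099680.3.1 at -1.14 (SE 0.15, adjusted p = 0.00113). In HT_HL endosperm 1 of 23 rose and 0 fell (5.85% of all genes called), and this was another lipid droplet-associated factor, Solyc05g015390.3.1, at 532 ± 59.4 CPM in HT_HL endosperm and 257 ± 46.9 CPM in ST_HL endosperm. None was called in ST_DL or HT_DL in either tissue. In HT_HL embryo 2 of 23 fell without replicates 2 and 3 of ST_HL and HT_DL (4.19% of all genes called), and 4 of 24 without replicates 1 and 4 (20.7%). Of the named factors, Solyc01g099680.3.1 was called without replicates 2 and 3 (-1.19, adjusted p = 0.00372), and Solyc09g074930.3.1 was not (-0.96, adjusted p = 0.00279). Without replicates 1 and 4 both were called, at -1.06 and -1.54. In ST_DL embryo 5 rose and 2 fell without replicates 1 and 4 (17.7%). Between the tissues 4 of 24 were higher and 0 lower in embryo, where 14.9% of all genes were called higher, among them an oleosin, Solyc02g086490.3.1, at 114 ± 92.3 CPM in embryo and 10.6 ± 2.56 CPM in endosperm (log2 fold change 3.34, SE 0.26, adjusted p = 1.92e-10).

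The last list held 9 IDs for the synthesis of galactinol, raffinose and stachyose, sugars that accumulate as seeds acquire tolerance of drying. In HT_HL embryo 1 of 5 rose, the galactinol-sucrose galactosyltransferase Solyc07g065980.3.1, at 2.03 ± 1.17 CPM in HT_HL embryo and 0.583 ± 0.189 CPM in ST_HL embryo (log2 fold change 1.79, SE 0.48, adjusted p = 0.0248), and 0 fell, where 4.84% of all genes were called. In the endosperm, where 5.85% of all genes were called in HT_HL and 1.14% in ST_DL, 0 of 6 rose and 1 fell in HT_HL, the raffinose synthase Solyc02g086530.4.1 (log2 fold change -2.15, SE 0.50, adjusted p = 0.0111), and 0 rose and 1 fell in ST_DL, the galactinol-sucrose galactosyltransferase Solyc07g007930.3.1, at 41.6 ± 9.30 CPM in ST_DL endosperm and 161 ± 47.7 CPM in ST_HL endosperm (log2 fold change -1.96, SE 0.31, adjusted p = 0.00833). None was called in ST_DL embryo or in HT_DL of either tissue. Leaving out replicates 1 and 4 of ST_HL and HT_DL embryo, 1 rose and 1 fell in HT_HL embryo (20.7% of all genes called) and 1 fell in ST_DL embryo (17.7%), and leaving out replicates 2 and 3 gave 1 that rose in HT_HL embryo (4.19%) and 0 in ST_DL embryo (0.286%). A galactinol synthase, Solyc01g079170.3.1, was the 1 gene of 6 higher in embryo, at 76.2 ± 23.5 CPM in embryo and 21.7 ± 9.11 CPM in endosperm, and 2 were lower, where 33.5% of all genes were called.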

How the data were processed

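RNA of 14 embryo and 12 endosperm samples was sequenced. Per the study's methods, read quality was inspected with FastQC, and Salmon 0.14.1 assigned reads to ITAG4.0 transcripts (SL4.0 build), correcting for sequence bias. The authors deposited expected counts, which are estimated read counts per transcript without normalization, and 10.5% of these values were not whole. Salmon divides reads among similar transcripts, which bears on ABI3. The counts were rounded, and groups came from the labels.

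The 4 conditions of each tissue were fitted together by the quasi-likelihood method of edgeR 4.0.16 in R 4.3.3, after TMM normalization and a filter (filterByExpr, minimum count 10, minimum total 15) that left 19253 embryo genes and 19185 endosperm genes. Tissue comparisons and interactions of tissue with condition came from a fit of all 26 libraries with 21153 genes. P-values were adjusted over all genes of a fit (Benjamini-Hochberg). A gene was called at an adjusted p under 0.05 with an absolute log2 fold change over 1. Standard errors are the log2 fold change divided by the square root of F. Log2 CPM for PC1 and profile similarity used a prior count of 2. The common biological coefficient of variation, shared by all genes of a fit, was 0.365 for embryo, 0.219 for endosperm and 0.306 over all libraries. Between replicates the SD of ABI3 was 2.65% (HT_HL embryo) to 39.6% (ST_HL embryo) of the group mean. That of ABI5 was 1.57% (ST_DL endosperm) to 29.8% (HT_DL embryo). The lowest of these values are within the range of counting error. Intervals of count ratios are exact binomial at 95% and cover counting error only.

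The text names the 4 regulators, the 3 genes of most similar profile for each, and from each list at most 2 called genes in each direction per comparison. The regulators, lists and tests were chosen with earlier results of these data known. Gene Ontology lists come from the part of the study's annotation used here, and the lipid body and raffinose family lists from its Mercator bins. No ID of the table (33976) was found in the RefSeq gene table, so a planned list named from it is empty. Alternatives were DESeq2 1.42.0, voom of limma 3.58.1 with quality weights, RLE scaling, no filter, no fold threshold, a replicate block, other sets of libraries and leaving out each library. List counts without either pair of embryo replicates were an alternative chosen after seeing the data. On simulated data the calls were tested for HT_HL against ST_HL in each tissue and for embryo against endosperm in ST_HL. The other comparisons and steps were not tested in this way.

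Pairing by replicate number was checked from correlations, across genes, of deviations from group means. HT_DL and ST_HL embryo libraries of the same number correlated at 0.728 to 0.804 in all 4 pairs, and different numbers reached 0.819. Embryo and endosperm libraries of the same number correlated at 0.129 to 0.346 in HT_HL and at 0.102 to 0.437 in ST_HL. Between the tissues, different numbers reached 0.0547 in HT_HL and 0.376 in ST_HL. In these 3 comparisons every same-number pair was above 0.1, and each of the others had a pair not above 0.1. Only between the tissues in HT_HL did every same-number pair exceed all different-number ones. For HT_DL with ST_HL embryo, and between the tissues in ST_HL, a pairing by number is therefore not shown. The sources do not say what a number shares.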

Additional observations from a re-analysis of the deposited data

How the results depend on the processing

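Over all alternatives, 1920 values of single regulators kept their direction and their side of the threshold, 49 became called and 75 changed sign. The FUS3 calls between the tissues held under all 34 or 35 alternatives of each comparison, at log2 fold changes from 2.64 to 4.58. No regulator was called for HT_DL against ST_HL in either tissue under any alternative. FUS3 in the endosperm, and AREB1 in both tissues, are limited by their counts, and for ABI3 and ABI5 in the embryo the limit is the split of ST_HL and HT_DL. The cause of that split was not tested. In the embryo fit AREB1 was not tested without replicates 2 and 3 of these groups.

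For HT_HL against ST_HL in the embryo, with 0 regulators called, DESeq2, the fit of all 26 libraries and no fold threshold gave 1 each, and leaving out replicates 1 and 4 of ST_HL and HT_DL gave 3. For HT_DL against HT_HL in the embryo (0 called), the first 3 of these gave 1 each and the last gave 2. For the light by temperature interaction in the embryo (0 called), DESeq2 and the fit of all libraries gave 2, limma voom 1 and leaving out replicates 1 and 4 gave 3. Leaving these replicates out also gave 1 for ST_DL against ST_HL and 1 for HT_DL against ST_DL in the embryo (0 called), 2 for ST_HL and 3 for HT_DL between the tissues (1 called), and 2 each for the interactions of tissue with HT_HL and ST_DL (0 called). No fold threshold gave 1 for HT_HL against ST_HL and 1 for HT_DL against HT_HL in the endosperm (0 called), and 2 between the tissues in ST_HL, in HT_DL and for the mean (1 called). Leaving out single libraries gave 0 to 1 for HT_HL against ST_HL and for HT_DL against HT_HL in the embryo, 0 to 2 for the embryo interaction and 1 to 2 between the tissues in HT_DL. Without replicates 1 and 4, 34.8% (ST_HL) and 34.7% (HT_DL) of all genes were called between the tissues. In the interactions of tissue it was 9.42% (HT_HL) and 7.16% (ST_DL). For the other tools, the fit of all libraries, the block and single libraries such shares are not given here, so those counts cannot be read against them.

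With the replicate block the counts were 1 for HT_HL against ST_HL, 1 for HT_DL against HT_HL and 3 for the light by temperature interaction in the embryo, and AREB1 in the interaction of tissue with HT_DL turned to 0.17. No pairing by number is shown for the embryo libraries of these comparisons. In the 3 comparisons where every same-number pair correlated above 0.1 the block changed no call.

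The sign of uncalled values turned as follows. With limma voom ABI3 was at 0.026 for ST_DL against ST_HL and -0.12 for HT_DL against ST_DL in the embryo, -0.026 for HT_DL against ST_HL in the endosperm, 0.13 (HT_HL) and -0.31 (ST_HL) between the tissues, and 0.44 in the interaction of tissue with HT_HL, and AREB1 was at 0.21 for HT_DL against ST_HL in the embryo, -0.12 for HT_DL against HT_HL in the endosperm and 0.43 in the interaction of tissue with HT_DL. With replicates 2 and 3 of ST_HL and HT_DL embryo left out, ABI3 was at 0.20 (ST_DL against ST_HL), -0.16 (HT_DL against HT_HL), -0.51 (HT_DL against ST_DL), -0.36 (light by temperature), -0.54 (tissues in ST_HL), 0.53 (tissue with HT_HL) and 0.012 (tissue with ST_DL). AREB1 was then at -0.13 (tissues in HT_DL), -0.022 (tissues in ST_HL) and -0.38 (tissue mean), FUS3 at 0.089 (tissue with HT_HL) and 0.12 (tissue with ST_DL), and ABI5 at -0.019 (tissue with ST_DL). Without replicates 1 and 4, ABI3 was at 0.074 (tissues in HT_DL) and 0.013 (tissue mean).

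On leaving out single libraries the sign was also not kept by ABI3 between the tissues in HT_HL (-0.13 to 0.18) and ST_HL (-0.069 to 0.25), for HT_DL against ST_DL in the embryo (-0.14 to 0.26) and the endosperm (-0.36 to 0.0076), for HT_DL against ST_HL in the endosperm (-0.17 to 0.20) and for tissue with HT_HL (-0.27 to 0.070). ABI5 ran from -0.038 to 0.12 (tissues in HT_HL), -0.21 to 0.11 (HT_DL against ST_HL, embryo), -0.059 to 0.084 (the same, endosperm) and -0.24 to 0.10 (tissue with HT_DL). AREB1 ran from -0.49 to 0.40 (HT_DL against ST_HL, embryo), -0.38 to 0.35 (the same, endosperm), -0.050 to 0.68 (HT_DL against HT_HL, endosperm), -0.59 to 0.14 (light by temperature, endosperm) and -0.47 to 0.40 (tissue with HT_DL). FUS3 ran from -0.65 to 0.13 (HT_DL against ST_HL, embryo), -0.11 to 0.65 (light by temperature, embryo), -0.70 to 0.35 (tissue with HT_HL), -0.62 to 0.29 (tissue with ST_DL) and -1.57 to 0.0093 (tissue with HT_DL).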
